A study of Mus musculus with 8 samples.

Results

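The 10 genes described here are regulators and surface markers of blood progenitors: the transcription factor genes Myb, Myc, Gfi1, Runx1, Meis1, Hoxa9, Irf8 and Sox4, the surface protein gene Cd34 and the cytokine receptor gene Flt3. They were taken by gene symbol from the deposited expression table, where each matched 1 of 38392 genes, by a rule that used symbols alone. The genes themselves were chosen with earlier results of these data known. RNA-seq had been done on eosinophils sorted from wild-type C57/BL6 female mice, with 4 libraries from bone marrow and 4 from small intestine. The libraries are labelled as separate samples, and within a tissue they came from separate mice by the account of the study. The mice carried no transgene and received no treatment that the labels name. Age was given as a range for the mice of the whole study and not for these animals. Bone marrow cells were flushed from femur and tibia, freed of red cells and sorted as CD11b+Ly6G-Ly6C-SiglecF+SSChi. Intestinal cells were released by warm collagenase digestion after removal of the epithelium, enriched on anti-CD11b beads and sorted as CD11b+MHC-II-SiglecF+SSChi. Tissue and handling therefore changed together and cannot be told apart. The comparison asks how eosinophils in the intestine differ in transcription from those at their site of origin.

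Eosinophils arise in the bone marrow from myeloid progenitors that pass through a dividing, granule-making stage before they leave as mature cells. MYB, RUNX1, HOXA9 and its cofactor MEIS1 act in stem and early progenitor cells, and MYC drives growth and division. GFI1 is a transcriptional repressor needed for neutrophil formation, whereas IRF8 directs progenitors towards monocytes and dendritic cells and is also known in the eosinophil lineage. CD34 is the classical surface marker of blood progenitors and of vascular endothelium, FLT3 is the receptor for FLT3 ligand, and SOX4 is a factor of early progenitors and of many epithelia.

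The libraries held 11508002 to 21289164 reads in genes, and reads fell on 19713 to 33346 genes. Levels are given as normalised counts, which are reads divided by the size factor of the library, always in the order BM_1, BM_3, BM_4, BM_5 (bone marrow) and SI_10, SI_11, SI_6, SI_7 (small intestine). In the check of the sorted cell type, Siglecf, which encodes the gating antigen, stood at 580 ± 66.0 (SD, n = 4) in bone marrow and 3076 ± 516 (SD, n = 4) in small intestine, and the eotaxin receptor gene Ccr3 at 70.9 ± 25.7 and 16351 ± 2623. Il5ra, the interleukin-5 receptor subunit gene, stood at 11.04 ± 5.31 and 1107 ± 222. The granule protein genes Epx (350 ± 40.2 and 20.6 ± 9.06) and Prg2 (1831 ± 396 and 147 ± 40.7) went the other way, and these 3 genes were chosen after their values were seen. The 11 eosinophil markers summed to 2709 to 4746 in bone marrow and 33562 to 46375 in small intestine, with 5 higher and 5 lower there. All 12 of 12 neutrophil precursor markers were higher in the bone marrow libraries, with summed counts of 507930 to 655459 against 767 to 1075 in small intestine. None of these markers was at 0 in any library of either tissue. The neutrophil granule genes Mpo and Elane stood at 149860 ± 19352 and 79791 ± 14221 in bone marrow. Ly6c2, which belongs to the genes for the antigen that the bone marrow gate left out, stood at 8268 ± 1228 there and 16.7 ± 3.79 in small intestine. The bone marrow libraries are therefore called by their label below, with the limit that their most abundant granulocyte transcripts were those of neutrophil precursors. The intestinal libraries carried 13 of 14 epithelial markers at higher levels than bone marrow, with summed counts of 7172 to 52893, the highest in SI_6, against 257 to 558. Among the remaining lists, 1 of 10 B and plasma cell markers was higher and 4 lower, 3 of 9 T and innate lymphoid cell markers were higher and 1 lower, 0 of 10 erythroid markers were higher and 8 lower, and 3 of 10 mast cell and basophil markers went each way. By the same test, described below, 22.0% of all genes were higher and 12.9% lower. Among genes that averaged 10 reads or more these shares were 34.6% and 28.6%.

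Promoters are shown for Myb, Gfi1 and Meis1, whose levels lay furthest apart between the tissues, and for Runx1 and Irf8, whose windows hold motif letters, as bases before the gene start in RefSeq (build GRCm38.p6), read 5′ to 3′ on the strand of the gene. Of the 10 genes, 9 had an entry in the RefSeq table. The first is Myb, at chr10:21160985-21161234 on the minus strand, whose window was 81.2% G and C with 40 CpG dinucleotides, against a median of 52.4% over all promoters.
Myb: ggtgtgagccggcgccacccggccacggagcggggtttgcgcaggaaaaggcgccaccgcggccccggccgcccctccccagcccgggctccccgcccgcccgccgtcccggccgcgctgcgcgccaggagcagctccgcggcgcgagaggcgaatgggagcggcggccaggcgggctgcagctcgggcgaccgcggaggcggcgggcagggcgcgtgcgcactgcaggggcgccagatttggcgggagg
Gfi1 has its inner start at chr5:107724344-107724593, on the minus strand.
Gfi1: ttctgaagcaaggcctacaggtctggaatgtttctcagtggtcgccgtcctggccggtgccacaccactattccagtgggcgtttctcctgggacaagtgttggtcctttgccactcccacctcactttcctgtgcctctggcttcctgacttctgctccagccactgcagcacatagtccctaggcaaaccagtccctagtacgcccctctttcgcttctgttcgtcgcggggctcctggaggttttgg
Meis1 lies next to chr11:19018986-19019219 on the minus strand, and capitals mark the letters of the RUNX motif TGTGGT.
Meis1: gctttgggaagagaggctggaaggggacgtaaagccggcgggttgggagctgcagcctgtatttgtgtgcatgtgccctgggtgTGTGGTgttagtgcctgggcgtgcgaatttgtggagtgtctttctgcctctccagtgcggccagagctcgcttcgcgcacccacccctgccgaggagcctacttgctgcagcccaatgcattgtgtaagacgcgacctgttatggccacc
Runx1 has 2 promoters, and the window of the inner one, at chr16:92697330-92697579 on the minus strand, is shown. No Runx1 transcript in GENCODE held the bases just after this inner start, while 2 held those after the outer start. Capitals mark the PU.1 core GAGGAA, here on the opposite strand.
Runx1: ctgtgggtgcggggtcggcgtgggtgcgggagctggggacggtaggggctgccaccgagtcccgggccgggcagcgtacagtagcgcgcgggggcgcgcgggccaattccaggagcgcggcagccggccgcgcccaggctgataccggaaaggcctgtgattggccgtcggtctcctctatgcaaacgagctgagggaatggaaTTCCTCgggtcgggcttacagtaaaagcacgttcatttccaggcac
Irf8 lies after chr8:120736108-120736357 on the plus strand, and capitals mark the GFI1 motif AAATCAC on the opposite strand.
Irf8: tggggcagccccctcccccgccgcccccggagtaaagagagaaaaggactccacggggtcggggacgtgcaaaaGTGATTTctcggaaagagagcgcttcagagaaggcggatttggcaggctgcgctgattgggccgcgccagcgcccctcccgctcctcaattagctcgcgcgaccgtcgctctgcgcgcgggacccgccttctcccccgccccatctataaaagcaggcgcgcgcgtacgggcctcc

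The motifs were searched on both strands of the 250 bases before each start, and none of these letters overlapped with another motif among those shown. The RUNX letters TGTGGT were in the window of Meis1 and in 14.0% of 32817 promoters. GAGGAA was in the windows of Hoxa9, Runx1 and Sox4 and in 23.3% of all promoters, and AAATCAC was in that of Irf8 and in 2.75%. The E-box CACGTG of MYC and MAX was in the window of the outer promoter of Runx1 and in 6.02% of all promoters. That match in Runx1 lay at or after the start of an annotated Runx1 exon. The MEIS letters TGACAG, in 15.9% of promoters, and the E2F letters GCGGGAA, in 3.82%, were in no window of these genes. A match here is a description of letters and not a bound site.

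Of the 10 progenitor regulators, Myb, Gfi1 and Myc were lower in small intestine, Meis1, Runx1 and Cd34 were higher, and Irf8, Hoxa9, Flt3 and Sox4 did not pass the test. The test was limma on the deposited variance-stabilised log2 values of all genes, with Benjamini-Hochberg adjustment over 38392 genes and a threshold of 0.05. Each difference is small intestine minus bone marrow on that log2 scale, with the standard error (SE) of limma. Over all genes 34.9% were called, 22.0% as higher and 12.9% as lower. Among the 16215 genes that averaged 10 reads or more, a level that all 10 regulators reached, 63.1% were called, with 34.6% higher and 28.6% lower. The 3 higher and 3 lower calls among 10 genes are thus near the background of genes at such depth. The libraries of the tissues did not overlap for these same 3 higher and 3 lower genes, nor for 20.3% (higher) and 13.9% (lower) of all genes. The share without overlap was not computed for genes that averaged 10 reads or more, so these counts lack a background at like depth. The median difference of the 10 was -0.77, against 0.37 over all genes. When each library was centred on its own median the median over all genes moved to -0.53, and the calls over all genes went from 8465 higher and 4937 lower to 4285 higher and 10216 lower. All bulk values share 1 limit, since fewer cells of a type and less RNA per cell cannot be told apart.

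**Figure D1:**
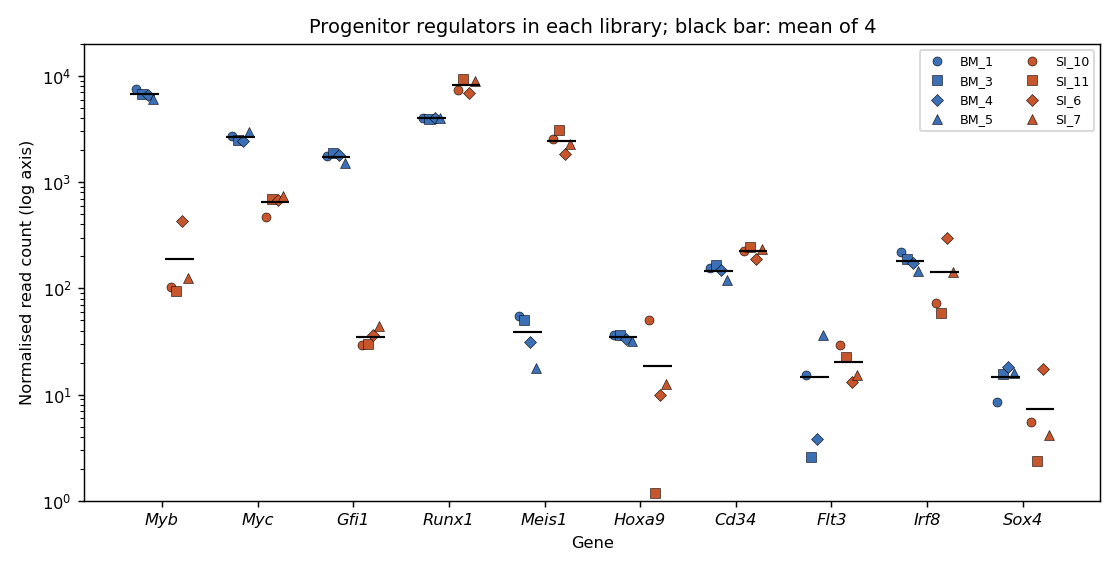
Normalised read count of each of the 10 genes (x axis) in each of the 8 libraries, on a log y axis, with bone marrow in blue and small intestine in orange. The black bar is the mean of 4 libraries, and for Myb, Myc, Gfi1, Runx1, Meis1 and Cd34 the points of the tissues do not overlap.

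Myb, the transcription factor gene of dividing progenitors, was 35.6-fold lower in small intestine. The gene (ENSMUSG00000019982) lies at chr10:21124935-21160984 on the minus strand. Its normalised counts were 7589.7, 6737, 6547 and 6094 in bone marrow and 104, 94.8, 433 and 126 in small intestine. Every intestinal library was far below every bone marrow library, and SI_6 stood above the other 3. The means were 6742 ± 626 (SD, n = 4) and 190 ± 163 (SD, n = 4), and the difference was -5.42 ± 0.46 (SE; 95% interval -6.46 to -4.38; limma adjusted p = 4.09e-05). Without SI_6 the difference was -5.92. SI_6 also held the highest sums of the epithelial markers and of the fibroblast and smooth muscle markers, of which 11 of 12 were higher in small intestine (918 to 2439 against 100 to 239 in bone marrow). Their part in the Myb level of SI_6 was not tested. An antisense transcript, Gm26577, shares 559 exon bases with Myb, and since the strand setting of the counting is not given, reads in these bases cannot be told apart. It had mean counts of 194 and 11.8.

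Gfi1, the repressor gene of the neutrophil lineage, fell as far as Myb with less spread in small intestine. It lies at chr5:107716657-107726036 on the minus strand (ENSMUSG00000029275), and its counts were 1775, 1878, 1810.5 and 1512 in bone marrow and 29.5, 29.6, 36.0 and 44.4 in small intestine. All intestinal libraries were at a like low level, and the tissues did not overlap. The means of 1744 ± 161 and 34.9 ± 7.01 (SD, n = 4 each) lay 49.98-fold apart, and the difference was -5.51 ± 0.20 (SE; 95% interval -5.97 to -5.05; limma adjusted p = 7.53e-07). The neutrophil precursor markers moved the same way in 12 of 12 genes, and their part in the Gfi1 and Myb differences was not tested. There were 0.0435 to 0.0480 Myb reads per Mpo read in bone marrow and 0.497 to 3.03 in small intestine.

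Myc, the growth regulator, was lower by a smaller factor of 4.10. The gene (ENSMUSG00000022346) lies at chr15:61985391-61990374 on the plus strand. Its counts were 2731, 2478, 2415 and 2963 in bone marrow and 470, 690, 675 and 745 in small intestine. The lowest bone marrow library was above the highest intestinal one, and SI_10 was the lowest of all. The means were 2647 ± 251 and 645 ± 120 (SD, n = 4 each), and the difference was -2.05 ± 0.21 (SE; 95% interval -2.53 to -1.57; limma adjusted p = 0.000124). Myc was the most abundant of the 3 lower genes in every intestinal library.

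Meis1, the homeobox gene whose product pairs with HOX proteins and PBX in stem cells, was 63.2-fold higher in small intestine. It lies at chr11:18879817-19018985 on the minus strand (ENSMUSG00000020160). Its counts were 55.2, 50.2, 31.6 and 17.7 in bone marrow and 2523, 3119.7, 1849 and 2281 in small intestine. Every intestinal library was far above every bone marrow library. The means were 38.7 ± 17.3 and 2443 ± 530 (SD, n = 4 each), and the difference was 5.93 ± 0.35 (SE; 95% interval 5.13 to 6.74; limma adjusted p = 6.80e-06), larger than that of 99.3% of all genes. SI_6, which held the most epithelial and fibroblast marker counts, was the intestinal library with the lowest Meis1 level. The sums of the eosinophil and of the endothelial markers were both highest in SI_11 and lowest in SI_6, as Meis1 was (46375 and 33562 for eosinophil markers, 9972 and 7604 for endothelial ones). This order was not particular to them, since the neutrophil precursor sum was also highest in SI_11 (1075) and lowest in SI_6 (767). The endothelial sum was 491 to 611 in bone marrow. Of the endothelial markers 8 of 10 were higher in small intestine and 1 was lower, and most of the sum was Pecam1 (8162 ± 1127 in small intestine), which leukocytes express too. The part of the epithelial, fibroblast, eosinophil and endothelial markers in the Meis1 difference was not tested. Gm37818, an unspliced transcript model on the same strand, shares 1029 exon bases with Meis1 and had mean counts of 1.53 and 125, and the antisense Gm16140 shares 896 bases and had mean counts of 1.15 and 17.4.

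Runx1, the core-binding factor gene required for blood stem cell formation, was high in both tissues and 2.05-fold higher in small intestine. The gene (ENSMUSG00000022952) lies at chr16:92601466-92826149 on the minus strand. Its counts were 4008, 3936, 4054 and 3998 in bone marrow and 7454, 9358, 6933 and 9027 in small intestine. The 4 bone marrow libraries lay very close together and the intestinal ones were spread more widely above them. The means were 3999 ± 48.9 and 8193 ± 1181 (SD, n = 4 each), and the difference was 1.02 ± 0.18 (SE; 95% interval 0.61 to 1.44; limma adjusted p = 0.00247). The call was lost when libraries were median-centred (0.12) and after quantile normalisation (0.39).

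Cd34, the surface sialomucin gene of progenitors and endothelium, was 1.51-fold higher in small intestine, and this call was lost in 6 of the 15 alternatives, turning to -0.31 with median-centred libraries. It lies at chr1:194938819-194961279 on the plus strand (ENSMUSG00000016494), and its counts were 155, 167, 148 and 119 in bone marrow and 225, 244, 189 and 233 in small intestine. The tissues did not overlap, though SI_6 and BM_3 were close. The difference was 0.59 ± 0.19 (SE; 95% interval 0.15 to 1.03; limma adjusted p = 0.0444). The adjusted p was 0.0760 without BM_1, 0.0845 without BM_4, 0.0592 without SI_11 and 0.0560 without SI_7. The endothelial gene Cdh5 stood at 95.01 ± 21.6 in small intestine and 3.67 ± 5.74 in bone marrow, and the part of the endothelial markers in the Cd34 difference was not tested.

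**Figure D2:**
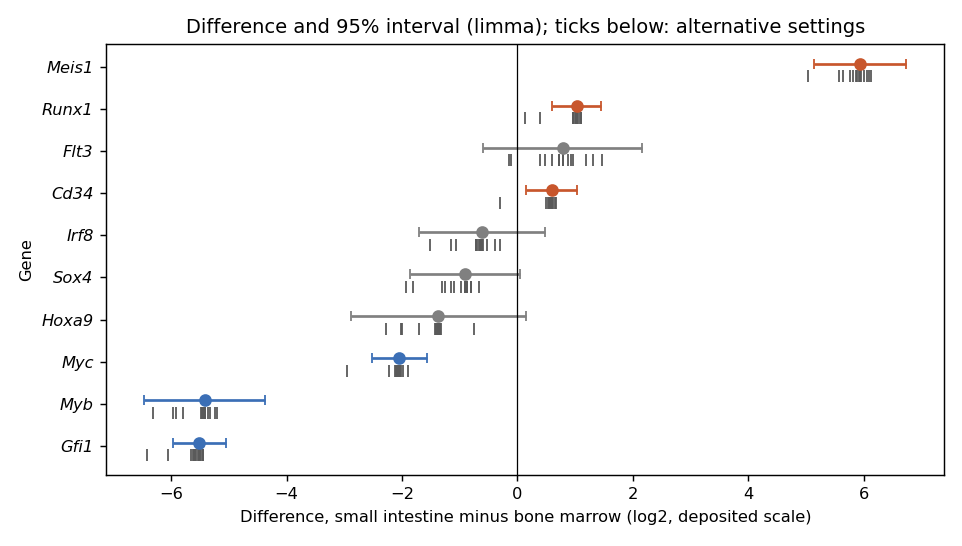
Difference between the tissues (log2, small intestine minus bone marrow, x axis) for each of the 10 genes, with the 95% interval of limma, n = 4 libraries per tissue. The values run from -5.51 for Gfi1 to 5.93 for Meis1, and the intervals of Irf8, Flt3, Hoxa9 and Sox4 include 0.

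Irf8, the factor gene of monocyte and dendritic cell formation, did not pass the test. It lies at chr8:120736358-120756694 on the plus strand (ENSMUSG00000041515). Its counts were 218, 189, 175 and 145 in bone marrow and 72.2, 58.1, 296 and 143 in small intestine. SI_6 was above every bone marrow library and the other 3 intestinal libraries were below them all. The difference was -0.62 ± 0.47 (SE; 95% interval -1.70 to 0.47; limma adjusted p = 0.369). Without SI_6 it was -1.06, with a limma adjusted p of 0.0478, but it was -0.40 without SI_10 and -0.30 without SI_11. Median-centred libraries gave -1.52, which was called. Without SI_6 and BM_5 together it was -1.16, with a limma adjusted p of 0.0585. Of 16 monocyte, macrophage and dendritic cell markers 11 were higher and 2 lower in small intestine, with sums of 29616 to 37870 against 7755 to 10864. Flt3, itself among the regulators described here, is in that marker list and was not called. Most of the intestinal sum was Itgax (14221 ± 1866 in small intestine) and Adgre1 (13672 ± 1373). The study identified human blood eosinophils by EMR1, the human counterpart of the Adgre1 product. The sum of these 16 markers thus cannot be ascribed to monocytes, macrophages and dendritic cells alone. The part of these markers in the Irf8 level was not tested.

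Hoxa9, the posterior homeobox gene of stem and early myeloid cells, was low in both tissues and was not called. The gene (ENSMUSG00000038227) lies at chr6:52223100-52231089 on the minus strand. Its counts were 36.8, 36.5, 33.5 and 31.6 in bone marrow and 50.3, 1.19, 9.82 and 12.5 in small intestine. SI_10 was the highest of all 8 libraries and the other 3 intestinal libraries were below bone marrow. The difference was -1.37 ± 0.66 (SE; 95% interval -2.89 to 0.15; limma adjusted p = 0.155), and leaving out 1 library moved it from -1.995 without SI_10 (limma adjusted p = 0.0233) to -0.76 without SI_11 (limma adjusted p = 0.28). It was also called with median-centred libraries (-2.27) and after quantile normalisation (-2.02). Meis1, its partner gene, thus had 0.559 to 1.5 reads per Hoxa9 read in bone marrow and 50.1 to 2632 in small intestine. The upper value came from SI_11, where Hoxa9 had 1 read, and without that library the highest was 188.

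Flt3, the receptor gene of lymphoid and dendritic cell progenitors, was near the depth limit. It lies at chr5:147330741-147400489 on the minus strand (ENSMUSG00000042817). Its counts were 15.3, 2.61, 3.83 and 36.3 in bone marrow and 29.5, 22.5, 13.1 and 15.3 in small intestine, from 67 and 69 reads in all. The highest and the lowest library were both bone marrow libraries. No difference was detectable at this depth (0.78 ± 0.60, SE; 95% interval -0.59 to 2.16; limma adjusted p = 0.368). Leaving out 1 library moved it from 0.38 without BM_3 to 1.31 without BM_5, and neither was called.

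Sox4, a single-exon gene at chr13:28948919-28953713 on the minus strand (ENSMUSG00000076431), was the least abundant of the 10 in small intestine. Its counts were 8.43, 15.7, 18.2 and 15.8 in bone marrow and 5.47, 2.37, 17.5 and 4.16 in small intestine, from 71 and 26 reads in all. SI_6 lay among the bone marrow libraries and the other 3 below them. The difference was -0.91 ± 0.42 (SE; 95% interval -1.87 to 0.04; limma adjusted p = 0.133). Without SI_6 it was -1.30, with a limma adjusted p of 0.0110, and without SI_6 and BM_5 it was -1.26, with a limma adjusted p of 0.0290. Without SI_11 it was -0.66 and not called, while median-centred libraries (-1.81) and quantile normalisation (-1.92) gave a call. The antisense non-coding gene Gm26735, not analysed here, shares 54.6% of the exon bases of Sox4, so that reads of Sox4 are uncertain without the strand setting.

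Per kilobase of merged exons, the order of the genes changed between the tissues. The order within a tissue depends on the length used. Merged exons span 8933 bases for Myb and its longest transcript 3693, against 2717 and 2338 for Myc. In bone marrow Myc stood first with 974 ± 92.4 normalised reads per kilobase (SD, n = 4), then Myb with 755 ± 70.1, Gfi1 with 547 ± 50.4 and Runx1 with 333 ± 4.06. The ranges of these 4 genes over the libraries did not overlap. Irf8 (25.8) and Cd34 (20.2) overlapped with each other, and Hoxa9 (6.20) was clear of Meis1 (3.67), the next in order. Meis1, Sox4 (3.03) and Flt3 (2.35) overlapped with one another, and the highest Flt3 library also reached into the range of Hoxa9. In small intestine Runx1 stood first with 681 ± 98.2 reads per kilobase, followed by Myc with 237 ± 44.2 and Meis1 with 232 ± 50.3, whose ranges overlapped. Cd34 (30.6), Myb (21.2), Irf8 (20.2) and Gfi1 (10.9) formed a chain of overlapping ranges below them. Hoxa9 (3.31), Flt3 (3.25) and Sox4 (1.54) came last and overlapped too. Among all genes, Myb moved from percentile 98.7 of the level per kilobase in bone marrow to percentile 70.1 in small intestine, and Meis1 from percentile 58.0 to 93.2.

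**Figure D3:**
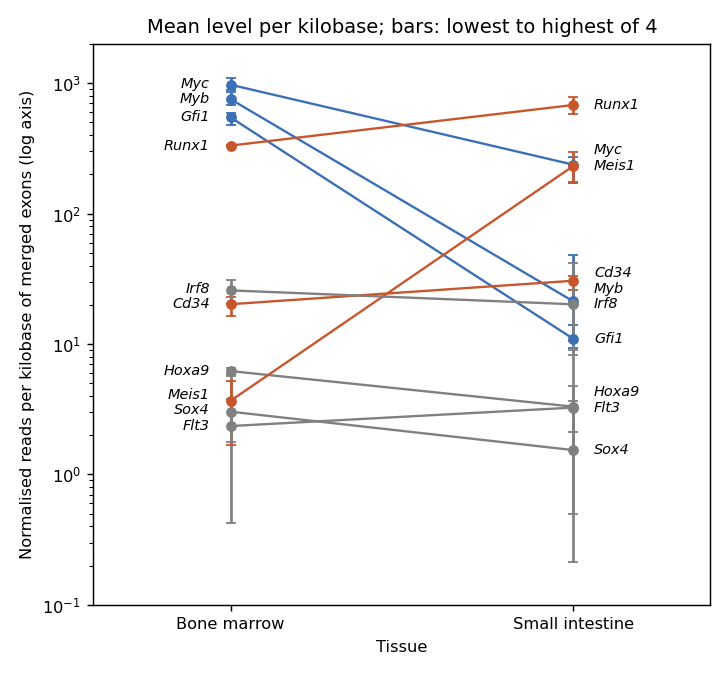
Mean normalised reads per kilobase of merged exons (log y axis) of the 10 genes in bone marrow and small intestine (x axis), with bars from the lowest to the highest of 4 libraries. Lines of genes called higher are orange, those called lower blue and those not called grey, and Meis1 crosses Myb and Gfi1.

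Of 23 relatives in the same protein families, 11 were called higher and 5 lower in small intestine, with a median difference of 1.03 against 0.37 over all genes. These are 47.8% and 21.7%, against 22.0% and 12.9% of all genes and 34.6% and 28.6% of those that averaged 10 reads or more, as 16 of the 23 did. Within the GFI family the 2 repressor genes differed in opposite directions. Gfi1b, the paralogue that acts in erythroid cells, megakaryocytes and basophils, had counts of 1.53, 4.56, 7.66 and 12.1 in bone marrow and 578, 846, 594 and 746 in small intestine. Its difference was 6.27 ± 0.38 (SE; limma adjusted p = 7.33e-06), opposite in sign to that of Gfi1. Within each library there were at most 0.0080 Gfi1b reads per Gfi1 read in bone marrow and at least 16.5 in small intestine, and the tissues did not overlap.

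The other MYB family genes fell with Myb. Mybl2, a gene of dividing cells, went from 802 ± 86.3 to 31.7 ± 16.8 normalised counts (-4.63 ± 0.34, SE; limma adjusted p = 2.08e-05), and Mybl1 from 128 ± 37.0 to 24.1 ± 13.0. In the MYC family, Mycl had 0 reads in all bone marrow libraries and a mean of 22.2 ± 15.5 normalised counts in small intestine (11.9 to 44.8, the highest in SI_6). That mean was at least 36.7-fold higher than the floor of 3 reads over the bone marrow group, and at least 24.3-fold higher without SI_6. Mycn was not called (1.12 ± 0.57, SE) on few reads.

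Meis2 and Meis3 were higher in small intestine like Meis1, but at low levels. Meis2 went from 5.80 ± 6.001 to 82.6 ± 25.5 normalised counts and Meis3 from 0.936 ± 1.31 to 34.3 ± 8.18. Runx3, the RUNX gene of T cells and some myeloid cells, rose from 596 ± 59.7 to 2084 ± 318 (1.79 ± 0.20, SE; limma adjusted p = 0.000173), a call lost with median-centred libraries (0.89). Runx2, the bone-forming factor gene, rose from 1374 ± 62.9 to 2504 ± 308 (0.86), a difference that turned to -0.04 with median-centred libraries. All 3 RUNX genes thus had higher counts in every intestinal library than in every bone marrow library, as 20.3% of all genes did.

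Of the HOX relatives, Hoxb4 fell from 113 ± 22.9 to 38.1 ± 6.94 normalised counts and Hoxa7 from 33.0 ± 18.0 to 8.04 ± 7.19 (limma adjusted p = 0.0395), while Hoxa3, Hoxa5 and Hoxa10 were not called. The call of Hoxa7 was lost in 7 of 15 alternatives, 6 of them the omission of 1 library (BM_1, BM_3, BM_4, BM_5, SI_11 or SI_7). Among the class III receptor tyrosine kinases related to FLT3, Kit, the stem cell factor receptor gene of progenitors and mast cells, fell from 3031 ± 430 to 1189 ± 573 (-1.48 ± 0.38, SE; limma adjusted p = 0.0152). The call of Kit was lost without SI_7 (limma adjusted p = 0.0510). Csf1r, the receptor gene of the macrophage growth factor, rose from 190 ± 37.1 to 1301 ± 74.2 (2.77 ± 0.20, SE; limma adjusted p = 1.89e-05), and it is also among the macrophage markers. Pdgfra (2.55) and Pdgfrb (0.70, turning to -0.20 with median-centred libraries and -0.08 after quantile normalisation), which mark fibroblasts and pericytes, were called higher. Pdgfrb kept its call in 3 of 15 alternatives and its libraries overlapped between tissues, and Pdgfra lost its call in 4, after quantile normalisation and without SI_10, SI_6 or SI_7. Podxl, a sialomucin gene related to Cd34 and made by endothelium, rose from 21.4 ± 10.9 to 176 ± 37.8, and Podxl2 was not called. Irf4, the nearest relative of Irf8, stood at 64.0 ± 20.5 and 71.8 ± 42.8 normalised counts with a difference of 0.00 ± 0.48 (SE). Of the relatives of Sox4, Sox11 was called higher (1.78) on a mean of 6.53 normalised counts in small intestine, and Sox12 was not called. The call of Sox11 was lost in 7 of 14 alternatives, and its libraries overlapped between tissues.

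**Figure D4:**
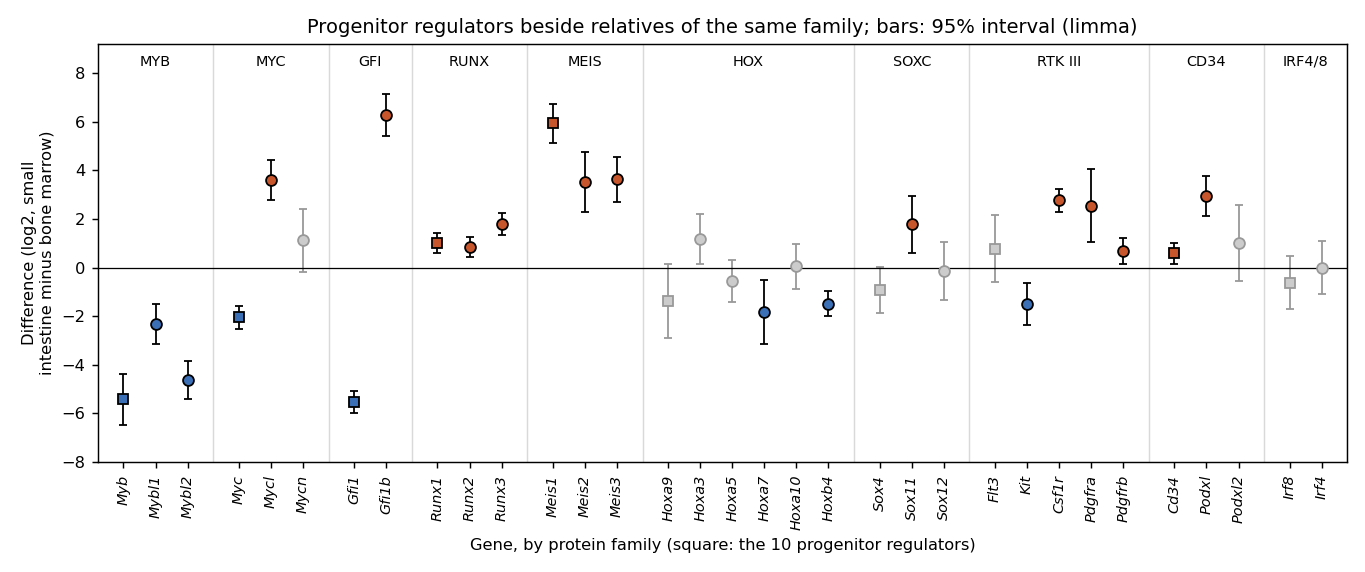
Difference between the tissues (log2, small intestine minus bone marrow, y axis) of the 10 genes (squares) and 23 relatives (circles), by protein family, with the 95% interval of limma. Orange marks a higher and blue a lower call, and Gfi1 (-5.51) and Gfi1b (6.27) lie at opposite ends.

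Of 24 genes for partners and cofactors of these factors, 8 were higher and 6 lower, with a median difference of 0.10. These shares of 33.3% and 25% are near the 34.6% and 28.6% of genes that averaged 10 reads or more, as all 24 did. Mxd1, whose product competes with MYC for MAX and represses its targets, had counts of 1337, 1284, 1335 and 1183 in bone marrow and 19923, 25144, 10655 and 16141 in small intestine. Every intestinal library was far above bone marrow, and the difference was 3.74 ± 0.28 (SE; limma adjusted p = 2.06e-05). Within a library there were 0.399 to 0.553 Mxd1 reads per Myc read in bone marrow and 15.8 to 42.4 in small intestine. Spi1, which encodes the myeloid factor PU.1, rose from 3157 ± 325 to 6444 ± 916 normalised counts (1.02 ± 0.19, SE), a call lost with median-centred libraries (0.12). Cbfb, which encodes the partner subunit of the RUNX proteins, fell from 2503 ± 241 to 1257 ± 131 (-0.99 ± 0.18, SE; limma adjusted p = 0.00266), the opposite sign to Runx1. Hdac1, a histone deacetylase gene whose product works with GFI1 and MXD1, fell from 1776 ± 98.6 to 788 ± 60.9 (-1.17 ± 0.17, SE).

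Among 27 other stem and progenitor genes 8 were higher and 14 lower, with a median difference of -1.17. These are 29.6% and 51.9%, against 22.0% and 12.9% of all genes and 34.6% and 28.6% of those that averaged 10 reads or more, as 24 of the 27 did. Gata2, a factor gene of stem cells, mast cells and the eosinophil and basophil lineage, had counts of 39.1, 33.9, 41.1 and 23.2 in bone marrow and 888, 1098, 625 and 759 in small intestine. The difference was 4.47 ± 0.26 (SE; limma adjusted p = 5.89e-06), and as for Meis1 the lowest intestinal library was SI_6 and the highest SI_11. Mecom, a stem cell factor gene also made in epithelium and endothelium, rose from 14.8 ± 12.3 to 127 ± 58.9 (3.03 ± 0.58, SE), with its highest value in SI_6. The epithelial and the fibroblast marker sums were highest and the endothelial sum lowest in that library, and their part in the Mecom difference was not tested. Cdk6, a cell cycle kinase gene of progenitors, fell from 44236 ± 1520 to 9669 ± 2519 (-2.23 ± 0.22, SE; limma adjusted p = 0.000103). Ikzf1, the lymphoid and myeloid zinc finger gene, fell from 6258 ± 369 to 2606 ± 434 (-1.28 ± 0.19, SE).

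Of 24 growth genes linked to MYC, such as those for ribosome assembly and nucleotide synthesis, 20 were lower and 1 was higher, with a median difference of -1.37. Over all genes 12.9% were lower, and 28.6% of those that averaged 10 reads or more, a level that all 24 reached. Ncl, the nucleolin gene, fell from 13611 ± 1552 to 5657 ± 541 normalised counts (-1.26 ± 0.18, SE; limma adjusted p = 0.000845), and Npm1, the nucleophosmin gene, from 7543 ± 1209.5 to 1822 ± 394 (-2.05 ± 0.23, SE; limma adjusted p = 0.000185). The 1 gene called higher was Odc1, the ornithine decarboxylase gene of polyamine synthesis, with 916 ± 49.3 and 1393 ± 152 (0.60 ± 0.18, SE; limma adjusted p = 0.0282), which turned to -0.30 with median-centred libraries. The neutrophil precursor markers, whose sums are given above, were higher in the same bone marrow libraries, and their part in these differences was not tested.

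**Figure D5:**
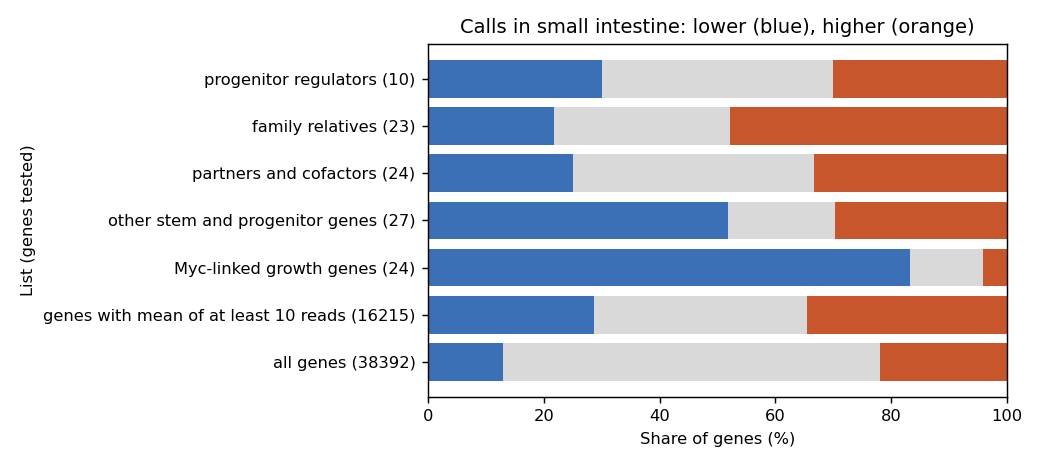
Share of genes (x axis, %) called lower (blue), not called (grey) and called higher (orange) in small intestine for each list (y axis, number of genes tested in brackets). The MYC-linked growth genes have 83.3% lower calls, against 28.6% of genes that averaged 10 reads or more.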

How the data were processed

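RNA-seq of sorted eosinophils (8 libraries, 4 per tissue) was analysed from 1 table. The authors mapped reads to GRCm38 with Ensembl release 86, counted them per gene with nf-core/rnaseq and deposited log2 values from the variance-stabilising transformation of DESeq2. Which aligner was run, whether counting used strand and how multi-mapping reads were handled is not given in the sources used here. Column names gave the tissue but matched no single sample, so libraries keep their column names.

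The transformation was inverted in closed form from the lowest deposited log2 value, 0.92971568. With size factors of 0.721 to 1.53, 100% of values were whole reads within 0.05 (largest deviation 0.00624). Totals per library were 11508002 to 21289164 reads, and precision is low for the 22177 genes averaging fewer than 10 reads. Tissues were compared by limma (3.58.1, R 4.3.3) applied to the log2 values deposited for 38392 genes, without covariate or filter, 2-sided, as the test chosen for deposited log2 values, and recovered reads were fitted as an alternative. The script was tested on simulated data. Positions and exon lengths came from GENCODE M21 (GRCm38), in which all IDs were found. Tables and figures were made in Python 3.11.15 with pandas 2.3.3 and matplotlib 3.10.9.

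The 10 genes and all lists were chosen with earlier results of these data known. Named genes were the 10 regulators, their relatives, the 2 most abundant called genes per direction of each other list, the 3 most abundant markers per list and the genes of the sort gates. Il5ra, Epx and Prg2 were added after their values were seen. Of 25 listed partners 24 were in the table, and 1 listed marker is not reported here. Alternatives were a mean-variance trend, voom on recovered reads, median-centring, quantile normalisation, a filter at a mean of 10 reads and leaving out each library. Centring on genes that averaged 10 reads or more and leaving out BM_5 and SI_6 together were chosen after seeing the data.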

Additional observations from a re-analysis of the deposited data

Results flagged for a closer look

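A library stood apart within its tissue in 3 of the 141 groups of 4 libraries examined among the named genes, where chance gives about 1 in 20 (7.05), and none of the 10 regulators was among them. Each value is the gap to the nearest library divided by the range of the group, on the deposited log2 scale, and was past Dixon's 95% critical value. For Sox11, BM_5 was the only bone marrow library with reads (3.72 normalised counts, value 1). For Cbfb, BM_4 stood above the others (2862 against 2355 to 2415, value 0.871). For Alox15, a lipoxygenase gene of eosinophils, SI_6 was below the others (16437 against 20497 to 21209.5, value 0.866).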

How the results depend on the processing

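Under the 15 alternatives, Myb, Myc, Gfi1 and Meis1 kept their direction and their call in each, with differences of -6.32 to -5.20 for Myb, -2.95 to -1.90 for Myc, -6.41 to -5.45 for Gfi1 and 5.03 to 6.13 for Meis1. Median-centred libraries moved many counts, in a fit whose total degrees of freedom rose to 207 from 8.39. Among the 10 regulators 1 was then higher and 6 lower, among the family relatives 7 were higher, among the partners 1 was higher and 11 lower, among the other stem and progenitor genes 5 were higher, among the MYC-linked genes 0 were higher, and over all genes 4285 were higher and 10216 lower. It turned Cd34 to -0.31, Flt3 to -0.12, Pdgfrb to -0.20, Runx2 to -0.043, Irf4 to -0.90, Odc1 to -0.30, Lck to -0.35 and Tagln to -0.17. Quantile normalisation left 5 regulators lower, 10 partners lower and 5 other stem genes higher, and gave -0.14 for Flt3, -0.077 for Pdgfrb, -0.44 for Irf4 and -0.27 for Lck. Over all genes it called 5954 higher and 7032 lower, against 8465 and 4937 in the main test. The filter at a mean of 10 reads left 5 other stem genes higher, of which 24 were tested. MYC-linked genes called higher were 2 with the trend, with voom and with the filter, and 0 when centred on genes that averaged 10 reads or more. Irf4, which was not called, was -0.039 with voom, -0.061 with that centring and -0.51 without BM_5 and SI_6. The median difference of all genes was 0.37, against -0.53 when median-centred, -0.03 after quantile normalisation and 0.89 with voom.

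Leaving out 1 library gave 3 to 5 regulators lower (5 without SI_6), 3 to 5 relatives lower (3 without SI_7) and 0 to 2 MYC-linked genes higher (0 without BM_1 or BM_4, 2 without SI_10). Over all genes it gave 6701 to 9596 higher and 4281 to 5166 lower calls. It moved Irf4 between -0.28 and 0.38, below 0 without BM_3, BM_5, SI_6 or SI_7, and Sox12 between -0.66 and 0.19, above 0 without SI_11 or SI_6. Of 61 other named genes, 46 had the same call and direction in each alternative. The cause of these shifts was not tested. No paired analysis was possible because the groups share no replicate numbers and the columns match no single sample.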
